A study of Mus musculus with 90 samples.

Results

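The genes described here are the ligands, receptors and adaptors of the tumour necrosis factor (TNF) superfamily in RAW 264.7 cells, a mouse macrophage line, during stimulation with lipopolysaccharide (LPS), interferon gamma or an ATP analogue. They were chosen by name: probes whose single annotated gene symbol began with Tnfsf or Tnfrsf, or was on a short list of further ligands, receptors and adaptors (Fas, Fasl, Lta, Ltb, Ltbr, Eda, Edar, Tradd, Fadd and Ripk1). This gave 33 genes on 50 probes, of 10698 named genes on the array: 13 ligands, 19 receptors and 1 adaptor, Fadd. Of these, 30 genes had enough measured values to be tested (11 ligands, 18 receptors and Fadd), and 3 did not (Fasl, Lta and Tnfrsf13c).

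Ligands of this family are mostly membrane-anchored trimers, some of which are shed, and they cluster their receptors on the target cell. Receptors with a cytoplasmic death domain can recruit Fadd and caspases, while many of the others recruit TRAF adaptors and feed into NF-kB and MAP kinase signalling. Macrophages are a classical source of TNF and themselves carry TNF receptors, and family members serve in their exchange with T and B cells.

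Cells were treated for 1, 2 or 4 h with LPS plus interferon gamma (LPS+IFG), LPS plus 2-methyl-thio-ATP (LPS+2MA), LPS alone, interferon gamma alone (IFG) or 2-methyl-thio-ATP alone (2MA), and RNA of each was hybridized with RNA of untreated cells of the same time. 2-methyl-thio-ATP acts on purinergic receptors, and interferon gamma is the T-cell and NK-cell cytokine that activates macrophages. LPS was used at 100 ng/ml, interferon gamma at 5 nM and the ATP analogue at 500 µM. The labels list lipid binding protein at 100 pM with LPS alone and not with the combinations, so a second agent and the absence of this protein cannot be told apart. All groups were of 1 cell line. The 15 conditions had 3 numbered replicates each, and every replicate averages both dye orientations, so that 90 2-colour arrays were read in all.

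Values are log2 ratios of treated over untreated RNA, so that 1 is a 2-fold higher ratio and 0 is the untreated level. A gene was called where limma gave a Benjamini-Hochberg adjusted p under 0.05 over all 11600 features and the mean ratio was at least 2-fold. The labels do not state which dye is on top of the ratio, and the direction used, Cy5 over Cy3, is likely rather than known: with it 5 of 5 genes known to rise with LPS and 4 of 4 known to rise with interferon gamma had ratios above 0. Nothing says that the replicates were separate cultures, so p-values measure the spread between these samples, which may be technical. The tests asked whether a mean ratio differed from 0. Variation among untreated cells enters them only if the replicates used separate untreated RNA, which the labels do not state. All treatments of a time were set against untreated cells of that time, and whether these were the same RNA is not stated. The files used here hold only ratios, so neither the levels of macrophage markers nor those of the family members can be read. Among the markers, the mean ratio of Cd68 stayed between -0.04 and 0.25 over the 15 conditions, that of Cd14 between -0.14 and 0.28 and that of Adgre1 between -0.14 and 0.94, while Fcgr1 reached 1.97 and Csf1r reached -1.29. A higher ratio in a culture cannot be told apart as more RNA per cell or more cells that carry it.

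Of the 30 genes tested, 8 were called in at least 1 condition and all of these rose: the receptors Fas, Tnfrsf1b, Tnfrsf1a, Tnfrsf12a and Tnfrsf13b and the ligands Tnfsf9, Tnfsf14 and Ltb. None was called lower, where at most 247 of 11600 features were called lower in a condition (4 h of LPS+IFG). The other 22 genes were called in no condition. How many of all features were called in at least 1 of the 15 conditions was not counted, so neither count has a share beside it. 4 of the 22 uncalled genes (Tnfrsf22, Tnfrsf23, Fadd and Ltbr) had means below 0 with an adjusted p under 0.05 in at least 1 condition, all under 2-fold. Means above 0 with such an adjusted p, also under 2-fold, were found for Tnfsf13b, Tnfsf8, Tnfrsf8, Tnfsf4, Tnfsf12 and again Ltbr. At 4 h of LPS+IFG 3 of 30 members had means below 0 with such an adjusted p, beside 2146 of 11600 features. Means above 0 with such an adjusted p were found there for 7 members and 1724 features. LPS+IFG raised 4, 5 and 3 members at 1, 2 and 4 h, where 1.84%, 3.74% and 6.71% of all features were called. LPS+2MA raised 2, 5 and 4 members, against 1.22%, 2.78% and 6.59% of all features. LPS raised 3, 5 and 3 members, against 1.08%, 2.21% and 4.81%. IFG raised 2, 2 and 3 members, against 0.379%, 1.08% and 1.86%. For 2MA the counts were 0, 1 and 1, against 0.328%, 0.328% and 0.147%. At 1 h of 2MA an unadjusted p under 0.05 in limma was found for 4 of 30 members and for 1228 of 11600 features. 1 of these 4 members (Tnfrsf23, lower) also had an adjusted p under 0.05, as did 147 of all features, but was under 2-fold. No member was called there in any alternative. Read as shares of the members tested, the 4 genes at 4 h of LPS+2MA were 13.3% and the 5 at 2 h of LPS 16.7%. The median ratio of the members lay between -0.04 and 0.10 in every condition, beside -0.01 to 0.01 for all features, so most of the family stayed near the untreated level.

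**Figure D1:**
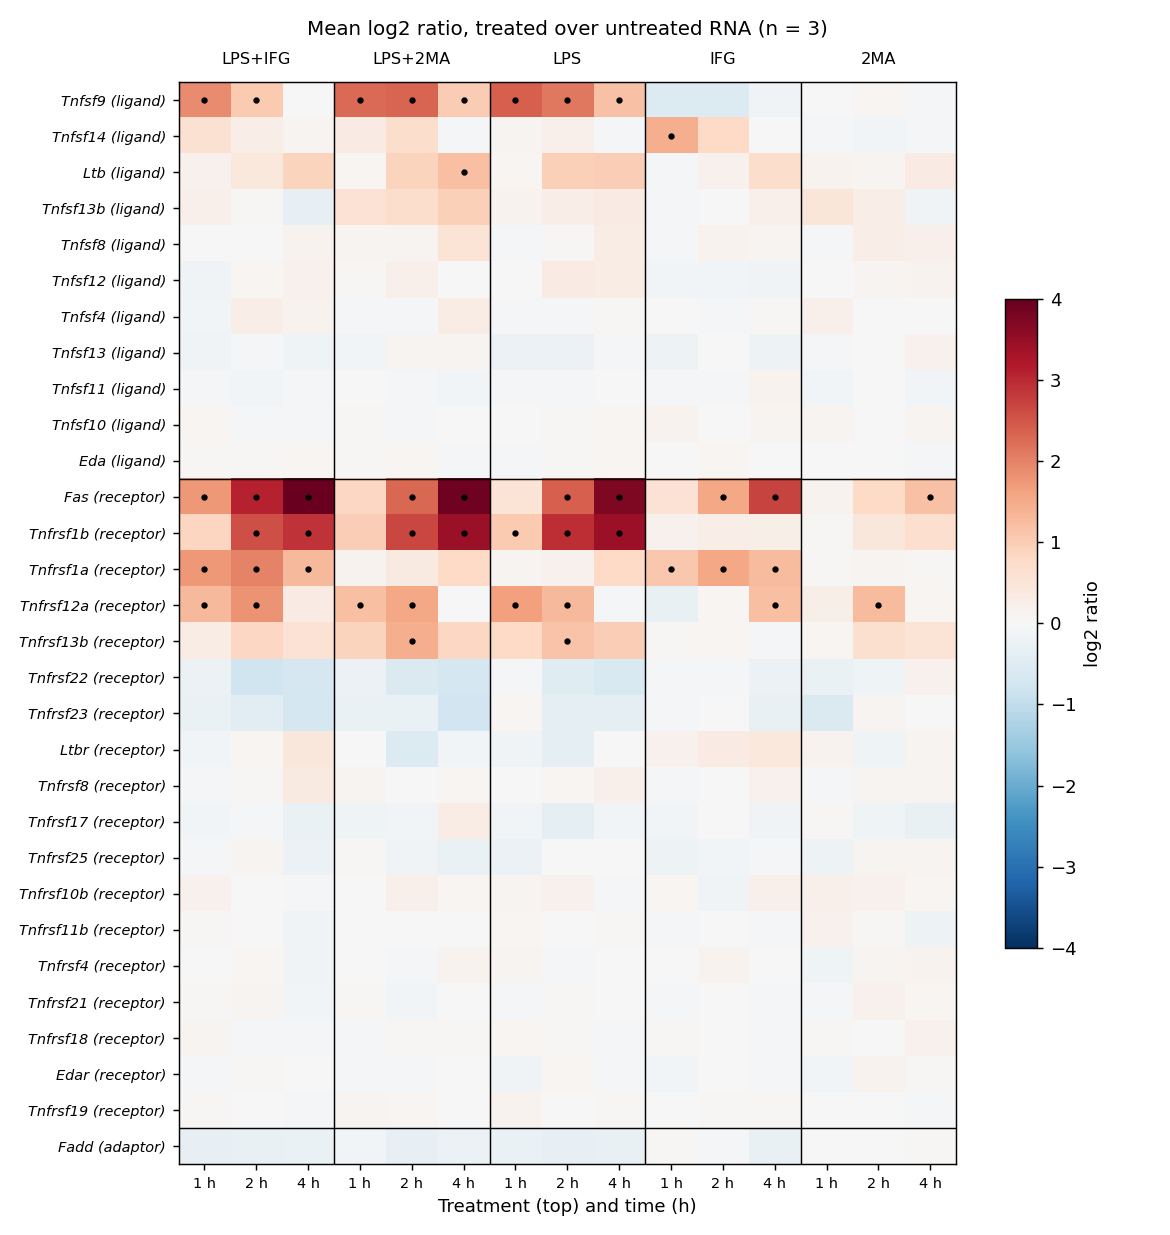
Mean log2 ratio of treated over untreated RNA for the 30 tested genes (rows, grouped as ligands, receptors and the adaptor Fadd) in the 15 conditions (columns, 3 replicates each), with red for higher and blue for lower ratios. A black dot marks a call (adjusted p under 0.05 and at least 2-fold). Dots fall on 8 rows, and Fas reaches 3.96 at 4 h of LPS+IFG.

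The sequences upstream of 4 of the responding genes are shown because these genes followed different treatments: Fas rose with LPS and with IFG, Tnfrsf1a with IFG, Tnfrsf1b with LPS, and Tnfsf14 was called at 1 h of IFG alone. Each window runs from 250 bases before to 50 bases after the RefSeq start site on GRCm38.p6, and was read 5′ to 3′ on the gene's strand: Fas at chr19:34290409-34290708 (plus), Tnfrsf1a at chr6:125349473-125349772 (plus), Tnfrsf1b at chr4:145246821-145247120 (minus) and Tnfsf14 at chr17:57194132-57194431 (minus). Capitals mark matches to 4 motifs searched on both strands: GAS, bound by STAT dimers (TTCNNNGAA), ISRE, bound by interferon regulatory factors (GAAA, NN, GAAA), AP-1 (TGANTCA) and the kB consensus of NF-kB.
Fas: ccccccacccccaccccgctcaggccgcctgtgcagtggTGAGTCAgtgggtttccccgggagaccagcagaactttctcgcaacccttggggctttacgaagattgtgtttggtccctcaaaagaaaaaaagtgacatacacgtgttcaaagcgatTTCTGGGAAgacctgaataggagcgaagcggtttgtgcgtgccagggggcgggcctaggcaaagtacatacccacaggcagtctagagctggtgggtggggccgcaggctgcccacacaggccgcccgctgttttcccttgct
Tnfrsf1a: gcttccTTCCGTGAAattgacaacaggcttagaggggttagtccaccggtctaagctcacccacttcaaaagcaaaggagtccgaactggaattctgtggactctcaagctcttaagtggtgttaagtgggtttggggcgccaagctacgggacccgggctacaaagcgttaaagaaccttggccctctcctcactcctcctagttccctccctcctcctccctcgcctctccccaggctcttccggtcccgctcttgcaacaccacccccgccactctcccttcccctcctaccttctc
Tnfrsf1b: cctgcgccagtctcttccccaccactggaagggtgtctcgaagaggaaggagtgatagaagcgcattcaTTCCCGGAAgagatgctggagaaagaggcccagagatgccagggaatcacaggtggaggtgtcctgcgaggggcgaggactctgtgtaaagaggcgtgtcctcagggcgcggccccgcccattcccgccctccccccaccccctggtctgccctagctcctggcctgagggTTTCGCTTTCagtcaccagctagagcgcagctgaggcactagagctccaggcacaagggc
Tnfsf14: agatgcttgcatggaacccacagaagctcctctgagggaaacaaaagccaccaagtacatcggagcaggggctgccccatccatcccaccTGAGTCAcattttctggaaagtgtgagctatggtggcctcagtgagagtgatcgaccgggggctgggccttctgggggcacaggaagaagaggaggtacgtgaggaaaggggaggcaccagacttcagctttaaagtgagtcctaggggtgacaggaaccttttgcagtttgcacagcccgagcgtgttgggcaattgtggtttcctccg
Fas held a GAS match at -93 to -85 and an AP-1 match at -211 to -205, counted from the start site. Tnfrsf1a held a GAS match at -244 to -236. Tnfrsf1b held a GAS match at -181 to -173 and an ISRE match at -10 to -1, and Tnfsf14 an AP-1 match at -160 to -154. The GAS letters stood upstream of Fas and Tnfrsf1a, which were called with IFG, and of Tnfrsf1b, which was not. The Tnfsf14 window, of a gene also called with IFG, held none. Whether these letters bear on the responses was not tested. Windows were found for 27 of the 33 genes and for 7 of the 8 that rose, all but Tnfsf9. Among those 7 a GAS match was present in 4, an AP-1 match in 2, a kB match in 1 (Ltb, at -87 to -78) and an ISRE match in 1, while Tnfrsf12a and Tnfrsf13b held none of the 4. Among all 27 windows of the family GAS was present in 8, AP-1 in 5, kB in 3 and ISRE in 3. Over 32851 mouse promoter windows of the same length, 8.30% held a GAS match, 7.81% AP-1, 8.46% kB and 3.44% ISRE. These are matches of letters in a short window and describe no binding.

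Fas, the death receptor that binds Fas ligand, had the largest ratios of the family and was called in 10 of the 15 conditions. At 4 h its log2 ratio was 4.48, 3.38 and 4.00 in the replicates of LPS+IFG, 4.23, 3.83 and 3.62 in those of LPS+2MA, and 4.26, 3.59 and 3.36 in those of LPS. The replicates of these 3 treatments overlapped, and all lay above those of IFG, at 2.87, 2.71 and 2.53, and of 2MA, at 1.82, 1.04 and 0.61. The means were 3.96 ± 0.55 in LPS+IFG (15.5-fold, adjusted p = 7.01e-16 in limma), 3.89 ± 0.31 in LPS+2MA (14.9-fold) and 3.74 ± 0.47 in LPS (13.3-fold; SD, n = 3 each, as for all means below). IFG averaged 2.70 ± 0.17 (6.51-fold) and 2MA 1.16 ± 0.61 (2.23-fold, adjusted p = 0.00722). The 2MA call at 4 h rested on replicate 1, without which the mean was 0.83 with an adjusted p of 0.333.

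The rise of Fas built up with time. In LPS alone its means at 1, 2 and 4 h were 0.54, 2.39 and 3.74, and the 4 h response exceeded the 1 h response by 3.20 (SE 0.35, adjusted p = 7.63e-09 in limma). In IFG alone it was 0.57, 1.54 and 2.70, a gain of 2.13 between 1 and 4 h (SE 0.35, adjusted p = 7.38e-05). Already at 1 h, LPS+IFG gave 1.71, 2.05 and 1.45 in the 3 replicates, each above every replicate of LPS alone (0.33, 1.04 and 0.24). Its mean of 1.74 exceeded that of LPS, 0.54, by 1.20 (SE 0.35), which was not called in the unpaired fit (adjusted p = 0.133) and was called with the replicate number as a block (adjusted p = 0.00033). The 2 Fas probes gave the same picture, 4.06 and 3.86 at 4 h of LPS+IFG and 3.87 and 3.61 at 4 h of LPS.

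The 2 receptors of TNF itself were called with different stimuli. Tnfrsf1b, the TNF receptor without a death domain, rose with every treatment that held LPS and was not called with IFG or 2MA alone. At 4 h its replicates were 3.12, 2.68 and 2.84 in LPS+IFG, 3.36, 3.36 and 3.63 in LPS+2MA, and 3.48, 3.53 and 3.26 in LPS. In IFG they were 0.46, -0.01 and 0.23, and in 2MA 1.01, 0.48 and 0.53, so both single agents stayed below all replicates with LPS. The mean for LPS was 1.06 ± 0.12 at 1 h, 2.96 ± 0.26 at 2 h and 3.43 ± 0.14 at 4 h (10.7-fold, adjusted p = 4.8e-21 in limma), and the 4 h response exceeded the 1 h response by 2.37 (SE 0.19, adjusted p = 3.82e-12). At 4 h the mean of 2MA, 0.67, had an adjusted p of 0.00264 but was under 2-fold.

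Tnfrsf1a, the death-domain receptor of TNF, rose instead with IFG and with LPS+IFG at every time. At 2 h its replicates were 2.08, 1.93 and 1.98 in LPS+IFG and 1.62, 1.56 and 1.47 in IFG, against 0.19, 0.31 and 0.03 in LPS. The groups did not overlap, with LPS+IFG highest and LPS nearest to the untreated level. Means at 1, 2 and 4 h were 1.72, 1.99 and 1.29 in LPS+IFG and 1.08, 1.55 and 1.28 in IFG (adjusted p = 7.45e-13 at 2 h in limma). LPS gave 0.12, 0.18 and 0.79, the last with an adjusted p of 7.68e-07 but under 2-fold, and LPS+2MA gave 0.13, 0.37 and 0.79. With 2MA alone the means lay between 0.04 and 0.09. The 2 Tnfrsf1a probes gave 2.05 and 1.94 in LPS+IFG at 2 h and 1.58 and 1.52 in IFG.

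**Figure D2:**
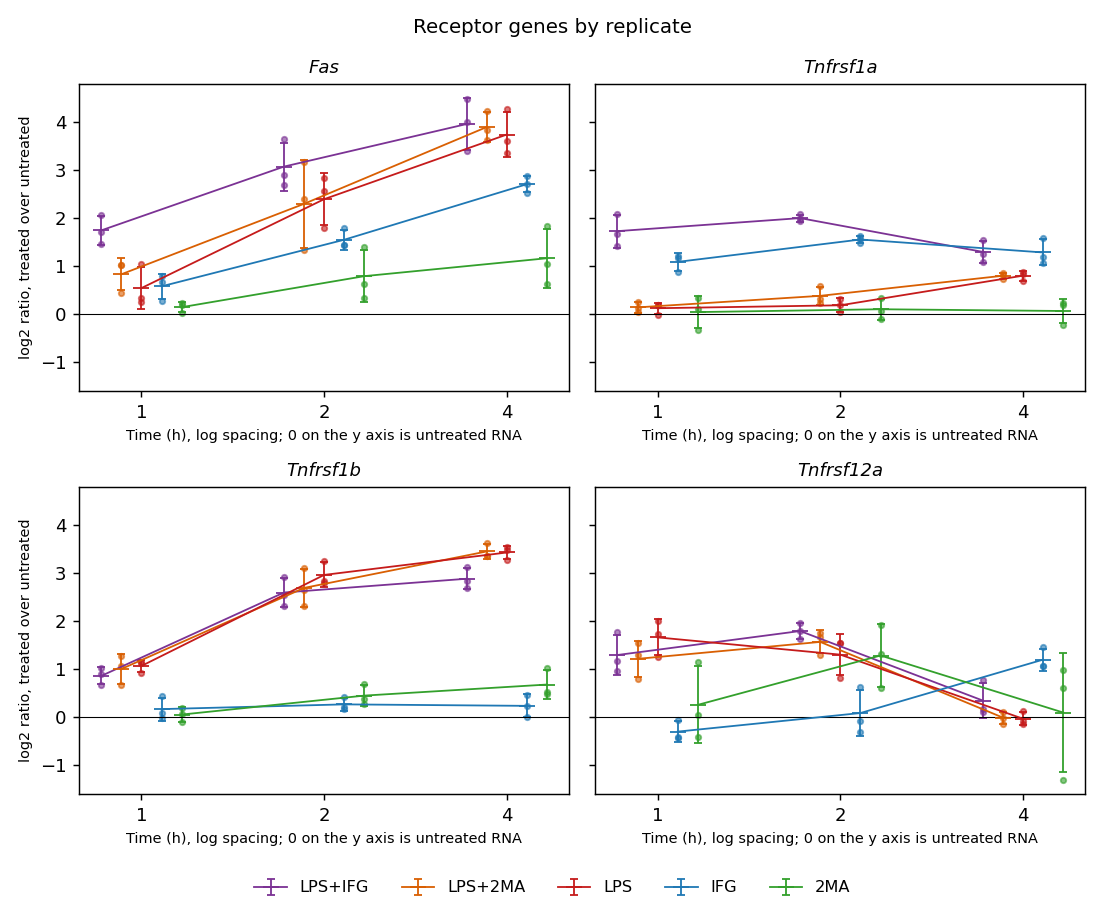
Log2 ratio of treated over untreated RNA (y axis) at 1, 2 and 4 h (x axis, log spacing) for Fas, Tnfrsf1a, Tnfrsf1b and Tnfrsf12a. Points are the 3 replicates, horizontal ticks the means and bars the SD, coloured by treatment. Tnfrsf1b rises to 3.43 with LPS at 4 h and stays at 0.23 with IFG, whereas Tnfrsf1a reaches 1.55 with IFG at 2 h and 0.18 with LPS.

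Tnfrsf12a, the receptor of the ligand Tnfsf12, rose early and had returned by 4 h in the treatments that held LPS. At 1 h its replicates were 1.76, 1.16 and 0.95 in LPS+IFG, 1.54, 1.29 and 0.79 in LPS+2MA and 1.99, 1.72 and 1.25 in LPS, and the 3 groups overlapped. All of these lay above the IFG replicates at 1 h, -0.06, -0.45 and -0.42. The means of LPS were 1.66 ± 0.37 at 1 h (3.15-fold, adjusted p = 4.28e-05 in limma), 1.30 ± 0.42 at 2 h and -0.04 ± 0.14 at 4 h, so that the 4 h response was lower than the 1 h response by 1.70 on the log2 scale (SE 0.38, adjusted p = 0.00145). LPS+IFG and LPS+2MA followed with 1.79 and 1.56 at 2 h and 0.34 and -0.02 at 4 h.

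With IFG alone the order in time was the opposite, -0.31 at 1 h, 0.08 at 2 h and 1.19 ± 0.23 at 4 h (replicates 1.05, 1.46 and 1.07, adjusted p = 0.0016). The gain of 1.50 between 1 and 4 h (SE 0.38, adjusted p = 0.0132) lost its call without replicate 2 or 3 at 1 h or replicate 2 at 4 h (adjusted p from 0.0544 to 0.0774). With 2MA the replicates at 2 h were 1.92, 1.31 and 0.61, a mean of 1.28 (adjusted p = 0.00678), and at 4 h they were 0.61, 0.98 and -1.32. The 2 h call was lost without replicate 1 (0.96, adjusted p = 0.643) and without replicate 2 (adjusted p = 0.0551). Likewise the 1 h calls of LPS+IFG and LPS+2MA were lost without their replicate 1 (adjusted p = 0.063 and 0.0857).

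Tnfrsf13b, a receptor of the B-cell ligands Tnfsf13b and Tnfsf13, was measured by 2 probes that disagreed. On the probe that moved, the replicates at 2 h were 3.10, 2.78 and 2.71 in LPS+2MA, 2.08, 1.75 and 1.64 in LPS+IFG and 2.05, 2.82 and 1.79 in LPS. In IFG they were -0.04, 0.23 and 0.10, below every replicate of the other treatments, and in 2MA 1.72, 1.22 and 0.60. Tested on its own, this probe was called at all 3 times in LPS+2MA (1.85, 2.86 and 2.23, the last from 2 replicates) and in LPS (1.63 from 2 replicates, 2.22 and 1.82, adjusted p = 3.07e-09 at 2 h in limma), at 2 and 4 h in LPS+IFG (1.82 and 1.05, the last with replicates of 0.81, 0.49 and 1.84) and at 2 and 4 h in 2MA (1.18 and 1.13). The other probe stayed between -0.15 and 0.16 in every condition and was called in none.

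As the mean of both probes, Tnfrsf13b was called only at 2 h, in LPS+2MA (1.47 ± 0.08, adjusted p = 8.7e-08) and in LPS (1.15 ± 0.33, adjusted p = 1.3e-05, under 2-fold at 0.95 without replicate 2). At 1 h of LPS the mean of 0.81 joined a replicate with only the quiet probe (0.03), a replicate with only the moving probe (1.51) and 1 with both (0.89), and at 4 h of LPS+2MA replicate 2 held only the quiet probe, as did replicate 1 of LPS+IFG, IFG and 2MA at 1 h. Those 5 means are therefore not comparable with the rest. Which probe follows the Tnfrsf13b transcript was not tested.

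Among the ligands, Tnfsf9, which activates a co-stimulatory receptor of T cells, had the largest ratios and was called in 8 conditions. At 1 h its replicates were 1.72, 2.31 and 1.65 in LPS+IFG, 2.15, 2.84 and 1.78 in LPS+2MA and 2.32, 2.62 and 2.24 in LPS. The 3 groups overlapped, and IFG lay below 0 in each replicate at -0.50, -0.30 and -0.86. The mean of LPS was 2.39 ± 0.20 at 1 h (5.26-fold, adjusted p = 4.13e-11 in limma), 2.10 ± 0.38 at 2 h and 1.18 ± 0.38 at 4 h, and the 4 h response was lower than that at 1 h by 1.21 (SE 0.29, adjusted p = 0.00243). The IFG means of -0.55 at 1 h and -0.56 at 2 h were not called (adjusted p = 0.473 and 0.195), although all 6 arrays at each time were below 0. The 4 h calls rested on replicate 3 in LPS+2MA (1.01, and 0.63 without it) and in LPS (1.18, and 1.00 without it, just under 2-fold). After all arrays were scaled to 1 spread these 2 means were 0.86 and 0.96, and that at 2 h of LPS+IFG was 0.89, against 1.04 unscaled, so that all 3 calls were lost.

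Tnfsf14, a ligand of the lymphotoxin beta receptor, was called in 1 condition, IFG at 1 h, where its replicates were 1.37, 1.42 and 1.54 (mean 1.44 ± 0.09, 2.71-fold, adjusted p = 5.06e-08 in limma). At 2 h of IFG they were 0.64, 0.93 and 0.77 and at 4 h 0.21, -0.22 and 0.01, and the 4 h response was lower than the 1 h response by 1.44 (SE 0.23, adjusted p = 3.76e-05). This fall back to the untreated level was of the opposite sense to Fas in the same treatment. LPS gave 0.10, 0.20 and -0.04 at the 3 times. In LPS+2MA at 2 h the replicates were 0.18, 1.08 and 0.85, a mean of 0.70 (adjusted p = 0.00122 in limma, under 2-fold) beside 0.78 at 2 h of IFG (adjusted p = 0.00133, also under 2-fold). In LPS+IFG at 1 h the replicates were 0.51, 0.80 and 0.56, all below those of IFG alone. That difference, chosen after the values were seen, was -0.82 (SE 0.23, adjusted p = 0.0446 in limma) and under 2-fold. The 2 probes gave 1.45 and 1.43 at 1 h of IFG.

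Ltb, the subunit that anchors lymphotoxin at the membrane, was called late and in 1 condition. At 4 h its replicates were 0.70, 0.92 and 1.03 in LPS+IFG, 1.39, 0.76 and 1.48 in LPS+2MA, 1.50, 0.16 and 1.32 in LPS, and 0.95, 0.40 and 0.76 in IFG. These groups overlapped, and only the LPS+2MA mean of 1.21 ± 0.40 was called (2.32-fold, adjusted p = 2.49e-08 in limma). The LPS mean of 1.00 ± 0.73 was just short of 2-fold (adjusted p = 1.6e-06). Without its replicate 2 it was 1.41 and called. At 2 h LPS gave 0.95, 0.86 and 1.03, close together and just under 2-fold.

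Among means with an adjusted p under 0.05, the 4 nearest to the 2-fold limit on each side were as follows. Just inside it were Tnfsf9 at 4 h of LPS+2MA (1.01), Tnfsf9 at 2 h of LPS+IFG (1.04), Tnfrsf1b at 1 h of LPS (1.06) and Tnfrsf1a at 1 h of IFG (1.08). Just outside were Tnfrsf1b at 1 h of LPS+2MA and Ltb at 4 h of LPS (both 1.00 after rounding), Tnfrsf13b at 4 h of LPS (0.99) and Ltb at 2 h of LPS (0.95). Several means outside the limit were called when 1 replicate was left out: Tnfrsf1b at 1 h of LPS+2MA without replicate 1 (1.17, and 1.14 after scaling to 1 spread), Fas in the same condition without replicate 3 (1.02), Ltb at 2 h of LPS+2MA without replicate 2 (1.06) and Tnfrsf13b at 4 h of LPS without replicate 1 or 2 (1.12 and 1.00).

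**Figure D3:**
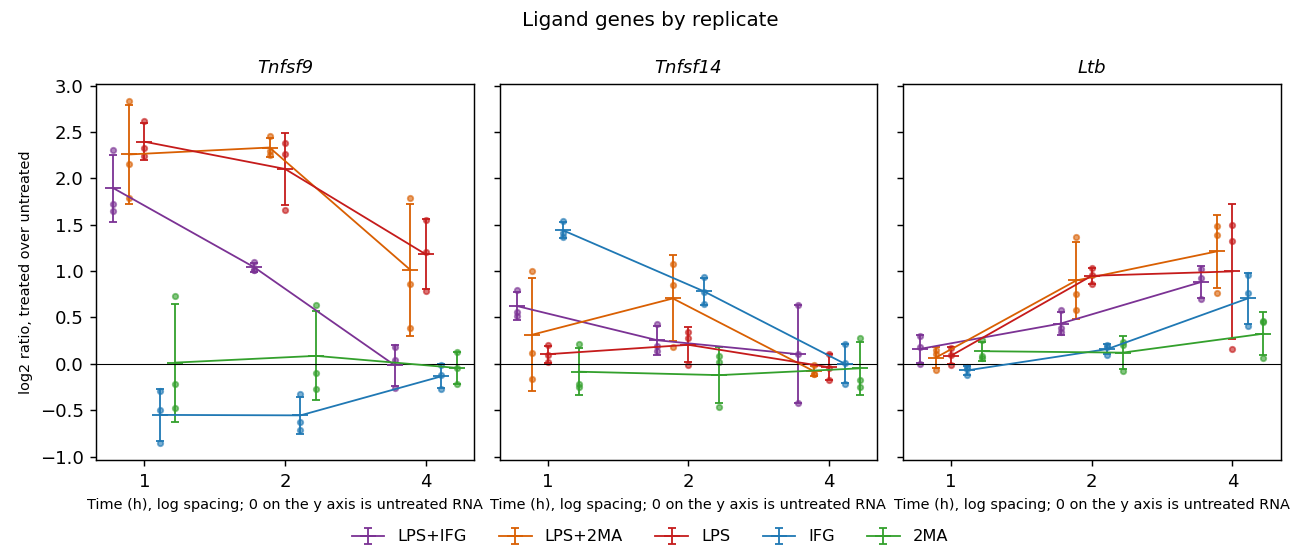
Log2 ratio of treated over untreated RNA (y axis) at 1, 2 and 4 h (x axis, log spacing) for the ligand genes Tnfsf9, Tnfsf14 and Ltb. Points are the 3 replicates, ticks the means and bars the SD, coloured by treatment. Tnfsf9 is highest at 1 h of LPS (2.39), Tnfsf14 stands out at 1 h of IFG (1.44), and Ltb at 4 h of LPS spreads from 0.16 to 1.50.

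Between LPS+IFG and LPS 2 members were called, in opposite directions. The labels of these groups differ in lipid binding protein too, so interferon gamma and the absence of this protein cannot be told apart. Tnfrsf1a was higher in LPS+IFG than in LPS by 1.61 at 1 h (SE 0.16, adjusted p = 7.02e-09 in limma) and by 1.82 at 2 h (SE 0.16, adjusted p = 2.59e-10), and by 0.50 at 4 h, which was not called (adjusted p = 0.0915). Tnfsf9 was lower in LPS+IFG than in LPS, with differences of -0.50 at 1 h (not called), -1.06 at 2 h (SE 0.29, adjusted p = 0.0351) and -1.20 at 4 h (SE 0.29, adjusted p = 0.0083). At 2 h its replicates were 1.02, 1.01 and 1.10 in LPS+IFG, against 2.26, 2.38 and 1.66 in LPS. At 4 h they were -0.26, 0.04 and 0.18 in LPS+IFG, against 0.79, 1.21 and 1.55 in LPS, without overlap at either time.

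These were the calls of LPS+IFG against LPS: 1 member of 30 at 1 h (2 with the replicate block, with Fas; 0.655% of all features), 2 at 2 h (0.940%) and 1 at 4 h (1.03%). The Tnfsf9 difference at 2 h lost its call without any 1 of 5 replicates (replicates 1 and 2 of LPS and all 3 of LPS+IFG, adjusted p from 0.0844 to 0.153). At 4 h it lost its call without replicate 3 of LPS or replicate 1 of LPS+IFG (-1.01 and -1.07) and after scaling all arrays to 1 spread (-0.97, adjusted p = 0.257). With the replicate number as a block both differences kept their call (adjusted p = 0.000644 and 7.85e-05).

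No member was called between LPS+2MA and LPS, whose labels also differ in lipid binding protein. LPS+2MA against LPS called 0 of 30 members at each time, where 0.0690%, 0.0259% and 0.112% of all features were called. In limma the members with an unadjusted p under 0.05 were 0, 1 and 1 at 1, 2 and 4 h, and no alternative called any. Of 11600 features 235, 518 and 639 had such a p. For Tnfrsf1b the differences between LPS+2MA and LPS were -0.06, -0.27 and 0.02 (SE 0.19) and for Fas 0.29, -0.10 and 0.16 (SE 0.35). The largest at 4 h was that of Tnfsf13b, 0.62 (SE 0.24, adjusted p = 0.595). These misses do not show that the responses were alike.

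**Figure D4:**
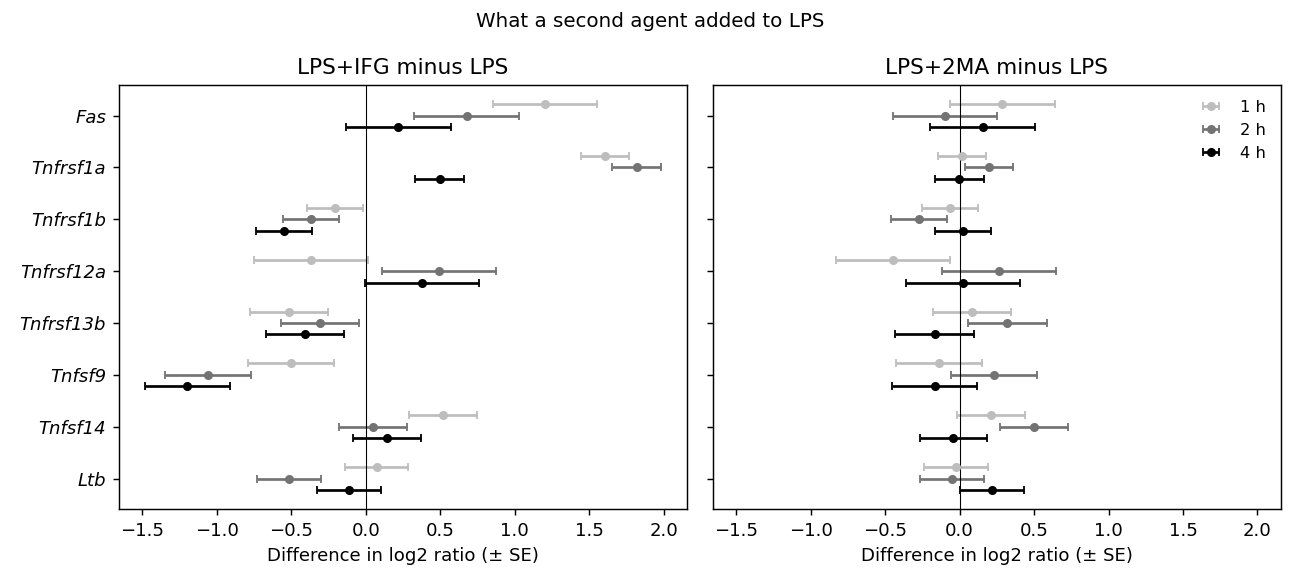
Difference in mean log2 ratio (x axis, points, with bars of 1 standard error) between LPS+IFG and LPS (left) and between LPS+2MA and LPS (right) for the 8 genes that rose (rows), at 1, 2 and 4 h (light to dark). On the left, Tnfrsf1a lies at 1.61 and 1.82 at the first times and Tnfsf9 at -1.20 at 4 h, while on the right no point was called.

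Seen from IFG, LPS+IFG at 4 h was higher for Tnfrsf1b by 2.65 (SE 0.19, adjusted p = 9.48e-13 in limma) and for Fas by 1.25 (SE 0.35, adjusted p = 0.0142), which were 2 of 30 members where 2.60% of all features were called. The Fas difference lost its call without replicate 3 of IFG or replicate 1 of LPS+IFG (1.17 and 0.99) and was 0.57 after all arrays were scaled to 1 spread. For Tnfrsf1a the same difference was 0.01 (SE 0.16). The earlier times were added after the values were seen. At 1 h 2 of 30 members were called higher in LPS+IFG than in IFG, Tnfsf9 by 2.44 and Tnfrsf12a by 1.60 (adjusted p = 1.71e-07 and 0.0117 in limma; 1.12% of all features). At 2 h 4 were, Tnfrsf1b by 2.33 (adjusted p = 2.48e-11), Tnfrsf12a by 1.71, Tnfsf9 by 1.60 and Fas by 1.52 (adjusted p = 0.00314; 2.15% of all features).

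At 4 h the combined response could be set against the sum of the single log2 responses. The LPS part of each sum came from cells with lipid binding protein, which the labels do not list for the combinations. Fas in LPS+IFG reached 3.96, against a sum of 6.44, a shortfall of -2.48 (SE 0.43, adjusted p = 0.000231 in limma). This was the only member called in the unpaired fit (1 of 30, with 1.38% of all features called), and its sum lay close to 6.64, the log2 of the 100-fold ratio that no deposited value exceeded. The measured Fas replicates in LPS+IFG, 4.48, 3.38 and 4.00, lay below that limit, and whether the limit bears on the shortfall was not tested. For Tnfsf9 the difference was -1.06 (SE 0.35), not called in the unpaired fit (adjusted p = 0.126) and called with the replicate block (adjusted p = 0.00531). Tnfrsf1a (-0.78, adjusted p = 0.0201), Tnfrsf1b (-0.77, adjusted p = 0.0647) and Ltb (-0.82, adjusted p = 0.0994) were less than 2-fold short. Without replicate 2 of LPS, Ltb was at -1.23 and called (adjusted p = 0.000414). For LPS+2MA no member was called against its sum (0.0517% of all features), though 6 had an unadjusted p under 0.05 in limma, as did 401 of 11600 features. Fas there was at 3.89, against a sum of 4.90.

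Between 1 and 4 h of LPS, 4 members were called, 2 in each direction (3.68% of all features were called). Fas and Tnfrsf1b were higher at 4 h and Tnfsf9 and Tnfrsf12a lower. With IFG 3 members were called (1.25% of all features), Fas and Tnfrsf12a higher at 4 h and Tnfsf14 lower. Tnfrsf12a was thus lower at 4 h than at 1 h with LPS and higher with IFG. The difference of Ltb with LPS, 0.91, was under 2-fold and was called without replicate 2 at 4 h (1.32). By an adjusted p under 0.05 in limma alone, 7 members differed with LPS and 4 with IFG, beside 1596 and 516 of 11600 features. Those under 2-fold were Ltb, Tnfrsf1a (0.68) and Tnfrsf22 (-0.55) with LPS, and Ltb (0.78) with IFG.

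The 22 members that were called in no condition were 8 ligands, 13 receptors and Fadd. For 17 of them every mean lay between -0.35 and 0.36, among them Tnfsf10 (TRAIL, a ligand of death receptors), Tnfsf12, Tnfsf13, Tnfsf4, Tnfsf11 (the osteoclast differentiation ligand), Eda, Edar and the death receptors Tnfrsf10b, Tnfrsf21 and Tnfrsf25. The co-stimulatory receptors Tnfrsf4, Tnfrsf8 and Tnfrsf18, the soluble decoy Tnfrsf11b, the B-cell receptor Tnfrsf17 and Tnfrsf19 made up the rest with Fadd. A quiet ratio does not show that a gene is expressed, since a gene near background has a ratio near 0 too.

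The other 5 had means beyond 0.5 without a call. Tnfrsf22 and Tnfrsf23, neighbouring genes for mouse decoy receptors of TRAIL, had mean ratios below 0 at 2 and 4 h of every treatment with LPS, and Tnfrsf23 also at 1 h of 2MA, with replicates of -0.99, -0.11 and -0.67 (mean -0.59, adjusted p = 0.0329 in limma). Tnfrsf22 was at -0.85, -1.07 and -0.50 at 2 h of LPS+IFG (mean -0.81, adjusted p = 1.73e-06 in limma, under 2-fold) and averaged -0.67 at 4 h of LPS+IFG, -0.72 in LPS+2MA and -0.61 in LPS. Tnfrsf23 averaged -0.71 at 4 h of LPS+IFG, -0.76 in LPS+2MA and -0.40 in LPS, while in IFG at the same time Tnfrsf22 was at -0.24 and Tnfrsf23 at -0.30. Ltbr, the lymphotoxin beta receptor, ranged from -0.55 (LPS+2MA, 2 h) to 0.45 (LPS+IFG, 4 h), and the ligand Tnfsf8 reached 0.55 at 4 h of LPS+2MA.

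Tnfsf13b (BAFF, a B-cell survival ligand) came nearest to a call, at 0.94 ± 0.16 at 4 h of LPS+2MA (adjusted p = 2.31e-05 in limma; called without replicate 3, at 1.04). Its 2 probes were of the same transcript record and agreed there, at 1.04 and 0.84. At 1 and 2 h of LPS+2MA they did not: 1 probe gave 1.23 (replicates 1.80, 1.82 and 0.08) and 1.33 (0.90, 2.16 and 0.94), called when tested on its own, and the other -0.08 and 0.09. The higher probe also gave 0.93 and 0.74 at 1 and 2 h of 2MA (not called), with replicates of 1.18, 1.30 and 0.30 at 1 h. Fadd, which links death receptors to caspases, had 1 probe at -0.72 at 4 h of LPS+IFG, -0.67 in LPS+2MA and -0.66 in LPS, and another at 0.16, 0.21 and 0.05 in the same conditions. As the mean of its probes Fadd had an adjusted p under 0.05 below 0 in 7 conditions, with means no lower than -0.34.

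**Figure D5:**
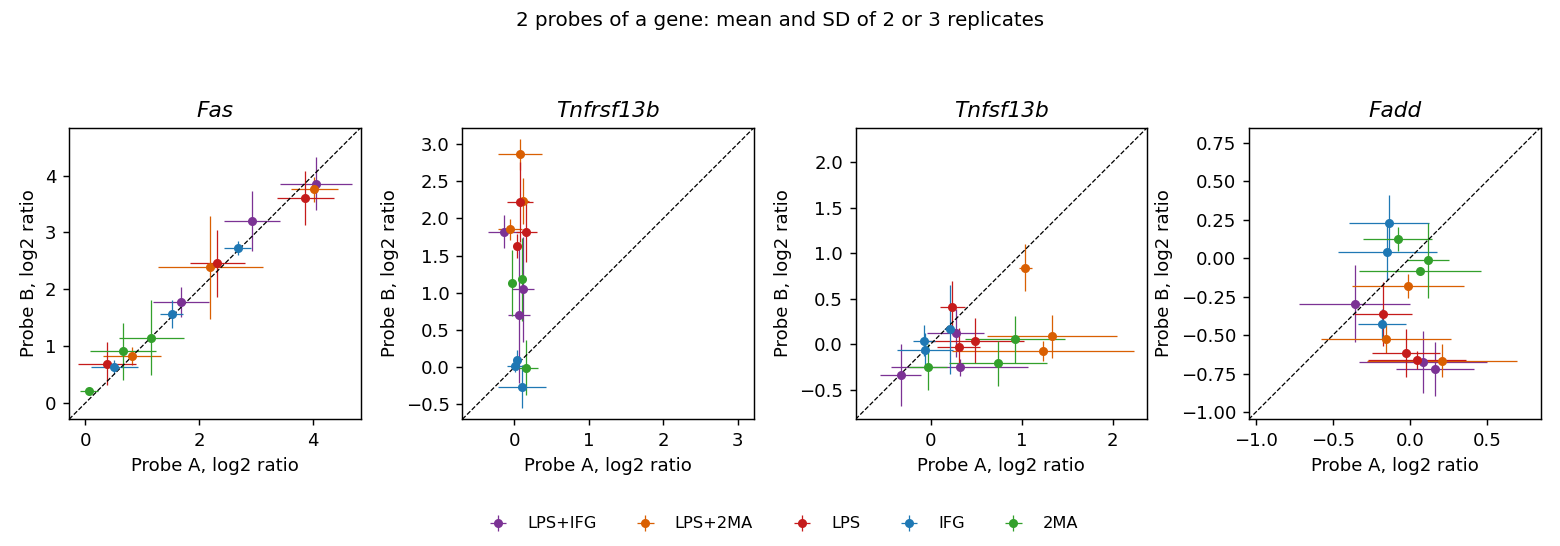
Mean log2 ratio of treated over untreated RNA on 1 probe (x axis) and on the second probe (y axis) of Fas, Tnfrsf13b, Tnfsf13b and Fadd, 1 point per condition, with bars of SD over 2 or 3 replicates and a dashed line of equality. Fas lies along the line, while Tnfrsf13b spreads up to 2.86 on the second probe and stays within 0.16 of 0 on the first.

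The 3 members that were not tested had a value in at least 2 replicates in 14, 14 and 13 of 15 conditions (Fasl, Lta and Tnfrsf13c). Fasl, the ligand of Fas, had means between -0.06 and 0.20. Lta, the soluble lymphotoxin, was highest at 4 h of LPS+IFG, with 0.58, 0.47 and 0.52, beside 0.34 in LPS+2MA, 0.17 in LPS and 0.35 in IFG. Tnfrsf13c, a receptor of Tnfsf13b, had 0.71 and 0.37 at 2 h of LPS+2MA. Tradd and Ripk1 were not analysed here.

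Family genes with other symbols and the signalling genes downstream give context. Of 8 such family genes 6 were tested, and LPS raised 2 of them, Tnf and Cd40, at each time (1.08%, 2.21% and 4.81% of all features were called). Tnf averaged 3.44, 3.87 and 3.19 at 1, 2 and 4 h of LPS, and 2.06 at 1 h of 2MA. Cd40, the receptor of the T-cell ligand Cd40lg, averaged 3.46, 4.68 and 5.44 in LPS+IFG, against 1.60, 3.11 and 4.60 in LPS. In IFG alone Cd40 averaged 0.61 at 1 h and 3.43 at 4 h. By position on the RefSeq annotation of GRCm38.p6, Ltb, Tnf and Lta are neighbours with no other protein-coding gene between them, and so are Tnfsf9, Cd70 and Tnfsf14. Within both clusters the ratios differed: at 1 h of LPS Tnf was at 3.44, Ltb at 0.09 and Lta at 0.16, and at 1 h of IFG Tnfsf14 was at 1.44 and Tnfsf9 at -0.55.

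Of 43 listed genes that relay, brake or shed signals of these receptors, 32 were tested. In LPS+IFG 7, 12 and 13 were called at 1, 2 and 4 h (1 of them lower at 4 h), in LPS+2MA 9, 10 and 14 (1 lower at 4 h), and in LPS 9, 11 and 12, all higher. Of all features 1.84%, 3.74% and 6.71% were called in LPS+IFG, 1.22%, 2.78% and 6.59% in LPS+2MA, and 1.08%, 2.21% and 4.81% in LPS. IFG called 0, 1 and 6 listed genes (0.379%, 1.08% and 1.86% of all features) and 2MA 0, 2 and 1 (0.328%, 0.328% and 0.147%). For both zeros limma gave an unadjusted p under 0.05 to 5 and 8 listed genes, and to 590 and 1228 of 11600 features. The median of the listed genes at 4 h was 0.60 in LPS+IFG, 0.66 in LPS+2MA and 0.54 in LPS, beside about 0 for all features. The 5 largest at 4 h of LPS were Traf1, a TRAF adaptor (2.46 ± 0.35), Cflar, an inhibitor of caspase activation at death receptors (2.17 ± 0.18), Tnfaip3, a ubiquitin-editing brake (2.15 ± 0.10), the NF-kB inhibitor Nfkbie (2.03 ± 0.23) and the NF-kB subunit Nfkb2 (1.69 ± 0.25). With IFG at 4 h these were at 1.25, 0.89, 1.16, 1.68 and 0.84. Since the 5 were picked for their LPS means, lower values with IFG are in part built into the choice, and the difference was not tested.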

How the data were processed

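The authors deposited 1 log2 ratio per probe and array for 90 two-colour arrays of 16281 probes. Scanner settings, background correction and normalization of these deposited log2 values are not given in the sources used here. Exact zeros (7.84% to 17.0% of an array) were taken as missing, signs were turned on arrays with treated RNA in Cy3, and both arrays of a dye-swapped pair were averaged to 1 replicate. Probes with a value in 2 of 3 replicates of every group were kept and probes of a gene averaged (11600 features). Probe names came from platform annotation (13738 probes with 1 symbol, 52 with several, 2491 with none). limma 3.58.1 (R 4.3.3) fitted all 15 groups together, with Benjamini-Hochberg adjustment over all features, and was tested on simulated data. Figures used matplotlib 3.10.9 and Python 3.11.15. The number of arrays limits the precision.

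Members and lists were chosen with earlier results of these data known. Every member called against untreated RNA was named with its replicates, and the others once, with their range. 1 family gene is not reported here. Same-numbered replicates within a time deviated together (86 of 90 pairs of groups correlated above 0.1, median 0.433; every pair of LPS with a combination did, the lowest at 0.119), so the replicate number was tried as a block. Other alternatives changed the scaling, the zeros, the missing-value filter, the probe rule, the groups fitted and the dye term, or left out 1 replicate.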

Additional observations from a re-analysis of the deposited data

Results flagged for a closer look

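For 5 members the response at 4 h was called different from that at 1 h of the same treatment. A call again needed an adjusted p under 0.05 over all features (limma) and at least 2-fold. Of all features 3.68% were called with LPS and 1.25% with IFG. With LPS the log2 difference, 4 h minus 1 h, was 3.20 for Fas (adjusted p = 7.63e-09), 2.37 for Tnfrsf1b (adjusted p = 3.82e-12), -1.70 for Tnfrsf12a (adjusted p = 0.00145) and -1.21 for Tnfsf9 (adjusted p = 0.00243). With IFG it was 2.13 for Fas (adjusted p = 7.38e-05), 1.50 for Tnfrsf12a (adjusted p = 0.0132) and -1.44 for Tnfsf14 (adjusted p = 3.76e-05). Tnfrsf12a had opposite signs in the 2 treatments.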

How the results depend on the processing

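Of 57 results on single genes none changed sign under any alternative run. The 57 were the called results of the main fit, and the alternatives reused the same arrays. A change of sign was therefore unlikely from the outset. Counts of called members moved by over 1.5 times in few settings. After scaling all arrays to 1 spread, LPS+IFG against LPS called 1 member at 2 h and 0 at 4 h, and LPS+IFG against IFG 1. With each probe on its own, LPS+2MA called 4 members at 1 h, and 2MA called 2 at 2 h and 2 at 4 h. With only the compared conditions fitted, 2MA called 0 members at 2 h and 0 at 4 h, LPS+IFG against LPS 2 at 1 h, and LPS+IFG against the sum 2. With a dye term on all arrays, LPS+IFG against LPS called 2 at 1 h and LPS+IFG against the sum 2. The paired fit, with a replicate block, gave the same 2 and 2, adding Fas and Tnfsf9, and changed no other call. Leaving out 1 replicate, the counts at 1, 2 and 4 h ranged over 3 to 4, 5 and 3 for LPS+IFG, 2 to 3, 5 to 6 and 4 to 5 for LPS+2MA, 3 to 4, 4 to 5 and 2 to 5 for LPS, 2, 2 and 3 for IFG, and 0, 0 to 1 and 0 to 1 for 2MA. They ranged over 1, 1 to 2 and 0 to 1 for LPS+IFG against LPS, 0 at each time for LPS+2MA against LPS, 1 to 2 for LPS+IFG against IFG, 1 to 2 and 0 against the sums, and 4 to 5 (LPS) and 2 to 3 (IFG) for 4 h against 1 h. For LPS at 4 h the count was 5 without replicate 2, with Ltb and Tnfrsf13b added, and 2 without replicate 3, where Tnfsf9 was lost. Single-gene calls were lost in 10 of 354 and 20 of 216 such repeats. Between 4 h and 1 h same-numbered replicates correlated at -0.302 to 0.037 for replicates 1 and 2 and at 0.256 (LPS) and 0.355 (IFG) for replicate 3; with the replicate block across times the counts of called members stayed at 4 (LPS) and 3 (IFG).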
